A study of Mus musculus with 36 samples.

Results

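The 10 genes described here mark endothelial cells, and they were followed through bulk RNA sequencing of the mouse hippocampus: the junction genes Cldn5, Cdh5 and Pecam1, the growth factor receptor genes Kdr, Flt1 and Tek, the transporter genes Slco1a4 and Abcb1a, and the surface protein genes Ly6c1 and Itm2a. They were taken by name from the table of counts, where 10 of 10 were found among 50559 gene symbols, and all 10 were among the 25382 genes with enough counts to be tested. The 36 libraries came from female mice aged 6 months on a C57BL/6 background, and all mice, controls included, carried Pvalb-IRES-Cre and a heterozygous RiboTag allele, which tags ribosomes in parvalbumin neurons. WT mice carried nothing further, APP mice carried mutant human APP (Sw,Ind; J9 line), Tau mice human tau with P301S (PS19 line), and APP/Tau mice both transgenes, all bred as heterozygotes. A PDGF-beta promoter drives APP in the J9 line and the prion promoter drives tau in PS19 mice, both active mainly in neurons. Naive mice, handled on 3 days like all others, stayed in the home cage (6 WT, 5 APP, 4 Tau and 6 APP/Tau libraries), and trained mice learned the Morris water maze, 6 trials a day for 5 days, were tested for memory 24 hours after training ended and were killed 2 hours later (5 WT, 3 APP, 4 Tau and 3 APP/Tau libraries). The RNA was the input fraction, a cleared lysate of both hippocampi that was not selected for any cell type.

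Endothelial cells line every brain vessel and form the blood-brain barrier, in which tight junctions seal the gaps between neighbouring cells and efflux pumps and uptake carriers decide what crosses. VEGF, made largely by astrocytes and neurons in the adult brain, acts on endothelium through the receptor encoded by Kdr, while the receptor encoded by Flt1 binds the same ligand and limits its action, and angiopoietins act through the receptor encoded by Tek. Amyloid and tau pathology have both been linked with changes of brain vessels, and the study asked how the transgenes, singly or combined, affect memory circuits of the hippocampus in mice with and without maze training.

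The start of a gene is where factors set its rate of transcription, and ETS family factors are known regulators of endothelial genes. The 250 bases before the start of 3 members are shown, picked after the values were seen. Kdr holds the smallest unadjusted p of the members over all libraries, and Flt1 encodes the other receptor for the same ligand. Abcb1a is the 1 member whose trained and naive libraries of a genotype did not overlap. A link between these sequences and the differences below was not tested. The sequences are from RefSeq on GRCm38.p6 (the counts were made on mm39) and are written on the gene's own strand. Capitals mark the ETS core AGGAAG, the FOX core GTAAACA, the GC box GGGCGG and the TATA box TATAAA, each searched on both strands.
Kdr, chr5:75978456-75978705, - strand: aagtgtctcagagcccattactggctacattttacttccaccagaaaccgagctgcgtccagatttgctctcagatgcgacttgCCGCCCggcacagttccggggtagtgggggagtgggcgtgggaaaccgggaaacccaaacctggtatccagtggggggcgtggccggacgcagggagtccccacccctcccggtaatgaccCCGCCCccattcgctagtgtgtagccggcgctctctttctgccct
Flt1, chr5:147726012-147726261, - strand: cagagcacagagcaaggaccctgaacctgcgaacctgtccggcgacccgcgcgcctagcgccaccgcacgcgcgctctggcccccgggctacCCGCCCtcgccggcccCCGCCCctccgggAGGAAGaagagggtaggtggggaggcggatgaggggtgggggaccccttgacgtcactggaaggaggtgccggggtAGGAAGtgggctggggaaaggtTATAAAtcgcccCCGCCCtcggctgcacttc
Abcb1a, chr5:8566841-8567090, + strand: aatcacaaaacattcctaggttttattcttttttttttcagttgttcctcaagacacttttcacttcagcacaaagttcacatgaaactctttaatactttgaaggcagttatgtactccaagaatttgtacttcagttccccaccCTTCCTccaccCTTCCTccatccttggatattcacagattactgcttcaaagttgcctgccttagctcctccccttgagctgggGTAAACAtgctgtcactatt
The Kdr window held 2 GC boxes and no ETS core. The Flt1 window held 2 ETS cores, 3 GC boxes and a TATA box starting 31 bases before the start site, and the Abcb1a window held 2 ETS cores and a FOX core starting 20 bases before it. RefSeq windows of 300 bases (250 before and 50 after the start) were matched for 8 of the members, with 9 windows because Ly6c1 has 2. An ETS core was present in 5 of these 9 windows (55.6%), those of Flt1, Abcb1a, Slco1a4, Itm2a and the second start of Ly6c1, against 35.4% of all 32851 mouse windows of the same length. The GC box was in 4 of the 9 windows (44.4%, against 35.7% of all), the TATA box in 2 (22.2%, against 13.6%) and the FOX core in 1 (11.1%, against 3.65%), and the motifs that overlapped each other were pairs of ETS cores in the Ly6c1 and Itm2a windows. These matches describe letters, not bound sites.

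A single library has to be set apart before any comparison. WT trained replicate 5 held the lowest level of the 36 libraries for 10 of 10 members, while it was lowest for 4.46% of all genes tested. Its depth, 97.7 M counts, lay within the 69.2 to 124.8 M of all libraries (median 85.4 M), and the members had between 196 and 4684 counts in a library. Relative to the mean of the other 4 WT trained libraries it held 30.9% of the Cdh5 level, 31% of Flt1, 34.2% of Abcb1a, 41.5% of Pecam1, 41.9% of Ly6c1, 42.9% of Slco1a4, 44.7% of Cldn5, 50.4% of Tek, 64.4% of Itm2a and 66.3% of Kdr. A score of the members (their mean log2 CPM, the counts scaled to an equal library size, centred over the 36 libraries) was -1.23 there and between -0.28 and 0.52 in the other 35 libraries. Other vessel genes were low there too. A list of 30 further pan-endothelial genes scored -0.75 against -0.17 to 0.30 elsewhere, and 21 of the 30 had their lowest level in this library. Pericyte markers (-0.82 against -0.24 to 0.25, 10 of 13 genes lowest), smooth muscle markers (-1.01 against -0.49 to 0.96) and fibroblast markers, not only of vessels (-1.40 against -1.07 to 1.01), were also lowest there. Neuron markers (0.10), astrocyte markers (-0.04) and microglia markers (-0.22) lay inside the range of the other libraries. Choroid plexus markers (-2.19) and oligodendrocyte markers (-0.42) were the 4th lowest of 36 there, and blood leukocyte and platelet markers (-0.72) the 3rd lowest. In bulk tissue, fewer endothelial cells and less RNA of these genes per cell cannot be told apart. Most comparisons that use the trained WT group are therefore given with and without it, while summed levels of lists include it.

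**Figure D1:**
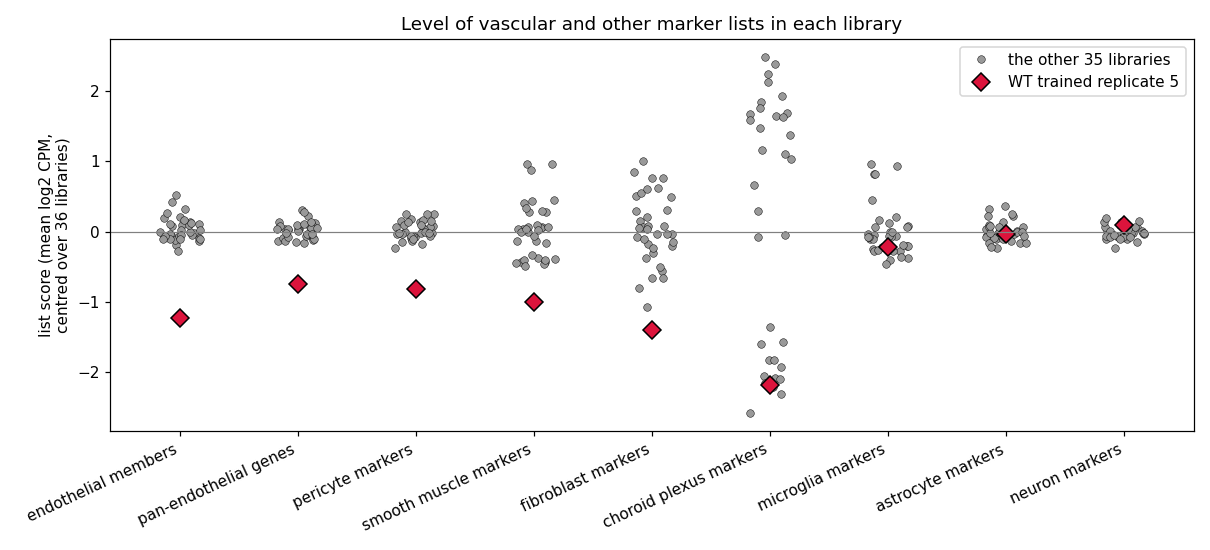
List scores (mean log2 CPM of the list's genes, centred over 36 libraries) for the endothelial members and 8 other marker lists; each grey point is 1 library and the red diamond is WT trained replicate 5. That library lies below all others for the members (-1.23) and for pan-endothelial, pericyte, smooth muscle and fibroblast genes, and among the others for microglia, astrocyte and neuron genes.

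The high end was held mainly by 2 naive libraries. APP naive replicate 2 had the highest level of 36 for 5 members (1.42% of all genes) with a member score of 0.52. Tau naive replicate 2 had the highest for 2 members (3.62% of all genes) with a score of 0.42. The latter library also scored 0.82 for microglia markers and 1.47 for choroid plexus markers. Choroid plexus markers split the 36 libraries into 15 with scores of -1.36 or less and 21 with scores of -0.08 or more, a split that crossed the groups unevenly. The labels were checked through Prnp, whose sequence the PS19 transgene carries in part, and Usp16. Prnp read 1423 to 2142 CPM in 16 libraries labelled with the Tau transgene and 728 to 879 CPM in the 19 without it, but 846 CPM in the library labelled Tau trained replicate 4, which goes against its label. Usp16 read 12.9 to 14.9 CPM with the APP transgene and 24.8 to 30.3 CPM without it, with no exception.

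Per length, the members were far from equal. Median levels in CPM per kilobase of exon were 13.7 for Itm2a, 11.6 for Cldn5, 8.70 for Ly6c1, 3.53 for Slco1a4, 2.76 for Abcb1a, 2.25 for Flt1, 1.84 for Pecam1, 1.68 for Cdh5, 1.54 for Tek and 0.860 for Kdr. All 10 were detected in all 36 libraries. None passed an adjusted p of 0.05 in any of 18 comparisons (0 of 180 tests by edgeR's quasi-likelihood test with Benjamini-Hochberg adjustment over all genes, and 0 passed by DESeq2 or limma-voom), where 0 to 0.835% of all genes passed. Of the 180 tests 22 had an unadjusted p under 0.05, while 2.67% to 15.2% of all genes had one in the single comparisons. The highest group mean was between 1.21 times (Itm2a) and 1.73 times (Kdr) the lowest. When the 8 groups were put in order of their means, 69 of 70 neighbouring pairs were closer than the larger of their SDs. The exception was the step in Kdr from trained WT to trained Tau. Sorting makes such steps small, and the SD of trained WT mice includes WT trained replicate 5. This count therefore cannot show whether groups differ.

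**Figure D2:**
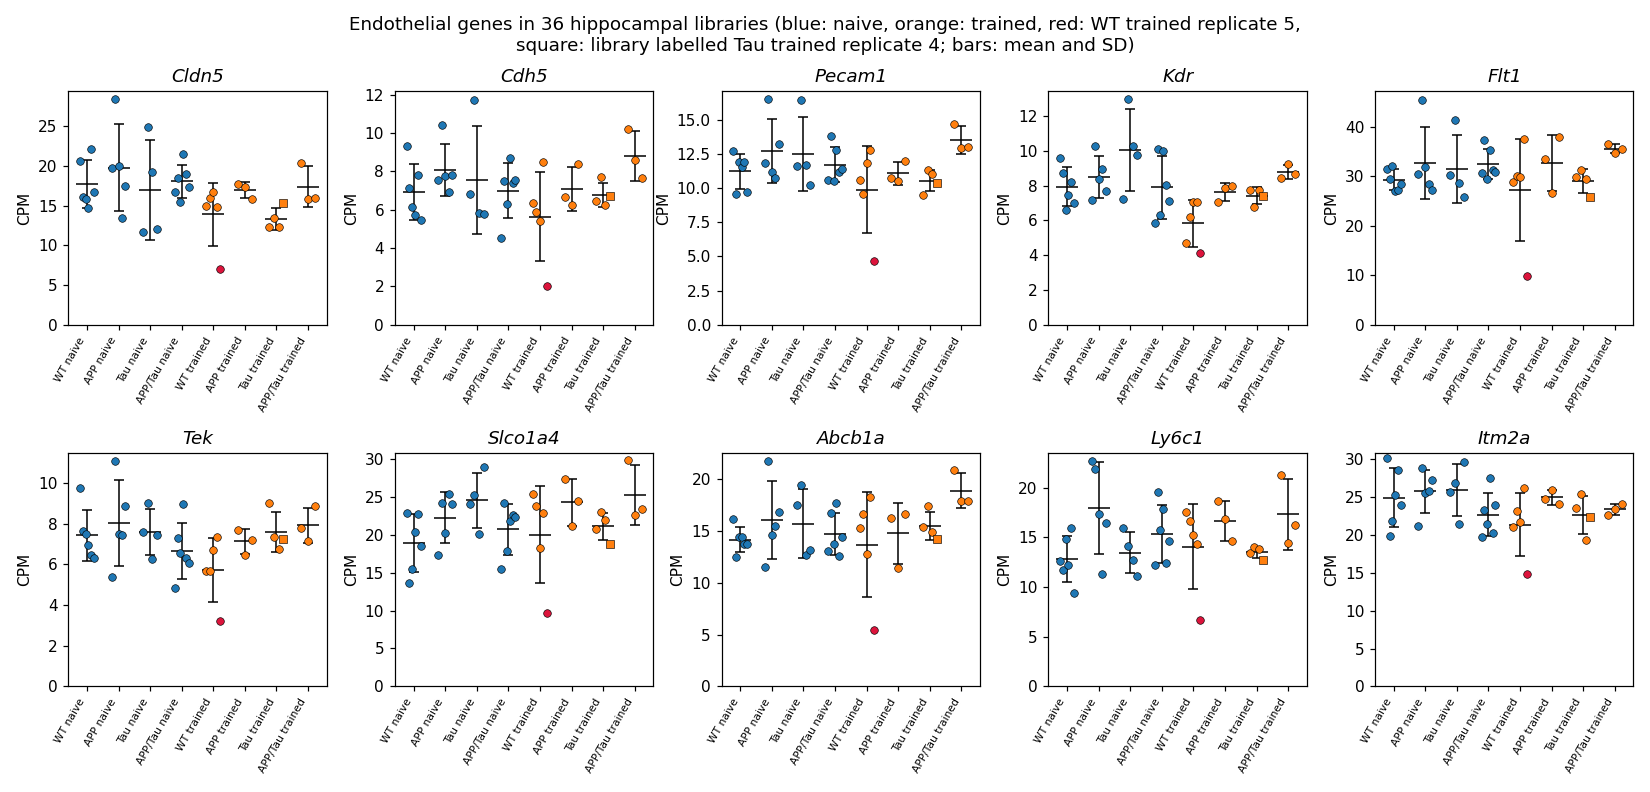
Level of each member in CPM (vertical axis, from 0) in 8 groups; points are libraries, bars the mean and SD. WT trained replicate 5 (red) is the lowest point in all 10 panels, and Kdr has a lower mean in trained than in naive WT libraries, which overlap, while the 3 trained APP/Tau libraries lie between 8.45 and 9.26 CPM.

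Of the junction genes, Cldn5 encodes the main claudin of the barrier's tight junctions. Its level in trained WT mice was 15, 16, 16.7, 14.9 and 6.99 CPM, against 14.7 to 22.2 CPM with a median of 16.4 in naive WT mice. The groups overlapped, and 4 of the 5 trained libraries lay within 14.9 to 16.7 CPM. In naive Tau mice Cldn5 read 11.7, 24.9, 19.3 and 12.1 CPM and in trained Tau mice 12.3, 13.4, 12.3 and 15.3. Averaged over the 4 genotypes, the log2 difference of trained from naive was -0.25 (SE 0.108, edgeR quasi-likelihood adjusted p = 0.584), and -0.20 without WT trained replicate 5. Between mice with and without the APP transgene, averaged over the Tau transgene and training, it was 0.23 (SE 0.107, edgeR adjusted p = 0.461), and 0.19 without that library. Neither passed the threshold.

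Cdh5 encodes VE-cadherin, the adhesion protein of endothelial adherens junctions, and Pecam1 encodes an adhesion protein where endothelial cells meet. Cdh5 read 10.2, 8.57 and 7.63 CPM in trained APP/Tau mice and 6.37, 5.89, 5.43, 8.48 and 2.02 CPM in trained WT mice. The 3 APP/Tau libraries lay at or above most WT libraries, but WT replicate 4 lay inside their range. The log2 difference was 0.65 (SE 0.260, edgeR adjusted p = 0.373), and 0.43 without WT trained replicate 5 (adjusted p = 0.631). Pecam1 read 14.7, 12.9 and 13 CPM in trained APP/Tau mice and 10.6, 9.55, 11.8, 12.8 and 4.65 CPM in trained WT mice, so that the groups did not overlap, although the lowest APP/Tau and the highest WT library were close. The log2 difference of Pecam1 was 0.46 (SE 0.184, edgeR adjusted p = 0.377), and 0.27 without that WT library (adjusted p = 0.639). In naive mice the log2 difference between APP/Tau and WT was 0.02 for Cdh5 (95% interval -0.38 to 0.42) and 0.06 for Pecam1 (95% interval -0.22 to 0.34).

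Kdr encodes the main signalling receptor for VEGF. Over all libraries it held the smallest unadjusted p of the members, both between genotypes and with training. Once WT trained replicate 5 was left out, Ly6c1 in naive APP against naive WT mice ranked ahead of Kdr in trained APP/Tau against trained WT mice. In WT mice Kdr read 6.62 to 9.60 CPM with a median of 7.83 in naive libraries and 4.72, 6.17, 7.08, 7.05 and 4.14 CPM in trained ones. Trained libraries were lower on average, with 2 of 5 inside the naive range, and the means were 5.83 ± 1.35 CPM (SD, n = 5) and 7.94 ± 1.12 CPM (SD, n = 6). The log2 difference with training was -0.45 (SE 0.151, edgeR adjusted p = 0.845), and -0.34 without WT trained replicate 5. In Tau mice Kdr read 7.26, 13, 10.3 and 9.74 CPM naive and 7.76, 6.75, 7.77 and 7.43 CPM trained, a log2 difference of -0.44 (SE 0.168, edgeR adjusted p = 0.209). That is the smallest adjusted p of any member in any comparison, and it rested in part on Tau naive replicate 2, the highest Kdr level of all 36 libraries, without which the difference was -0.29. Choroid plexus markers differed in the same direction between trained and naive Tau libraries (median -3.02 on the log2 scale, 17 of 17 at an unadjusted p under 0.05), as did fibroblast markers (median -1.06, 8 of 12), and their part in the Kdr difference was not tested.

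In APP/Tau mice the estimate for Kdr had the other sign. The gene read 5.84 to 10.1 CPM with a median of 7.6 in naive libraries and 8.45, 9.26 and 8.66 CPM in trained ones, a log2 difference of 0.16 (SE 0.169, 95% interval -0.18 to 0.49). In APP mice it read 7.19, 10.3, 8.38, 8.96 and 7.70 CPM naive and 7.05, 7.86 and 7.99 CPM trained (-0.16, SE 0.175). The difference between the training effects of APP/Tau and WT mice was 0.61 (SE 0.226, edgeR adjusted p = 0.981), and 0.50 without WT trained replicate 5. Among trained mice Kdr was 0.60 higher on the log2 scale in APP/Tau than in WT mice (SE 0.179, edgeR adjusted p = 0.232, unadjusted p = 0.00198), with means of 8.79 ± 0.420 CPM (SD, n = 3) and 5.83 ± 1.35 CPM (SD, n = 5). The groups did not overlap, and leaving out WT trained replicate 5, the lowest Kdr library, could not change that. Without it the difference was 0.49 (edgeR adjusted p = 0.462). Leaving out each library in turn kept an unadjusted p under 0.05 for 5 of the 22 member results that had one, and 4 of these 5 were Kdr: APP/Tau against WT after training, training in WT mice, training averaged over genotypes (-0.22, SE 0.0830, and -0.20 without WT trained replicate 5) and the difference in training effect between APP/Tau and WT mice. All 4 Kdr results use the trained WT libraries, so they are not independent of each other. The fifth was Ly6c1 between mice with and without the APP transgene. How many of all genes kept an unadjusted p under 0.05 in the same way was not counted.

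Flt1, which encodes the VEGF receptor that acts largely as a decoy, was among the members lowest in WT trained replicate 5. Its level was 28.9, 30.1, 29.9, 37.6 and 9.81 CPM in trained WT mice and 36.5, 34.7 and 35.6 CPM in trained APP/Tau mice. The APP/Tau libraries lay close together, and WT replicate 4 lay above them. The log2 difference was 0.39 (SE 0.219, edgeR adjusted p = 0.559), and 0.17 without WT trained replicate 5. Tek, which encodes the angiopoietin receptor Tie2, read 5.70, 5.68, 6.69, 7.37 and 3.21 CPM in trained WT mice and 7.81, 7.14 and 8.85 CPM in trained APP/Tau mice. These groups overlapped by 1 library on each side, with a log2 difference of 0.48 (SE 0.202, edgeR adjusted p = 0.411), and 0.32 without WT trained replicate 5. Trained Tau mice read 9.01, 7.36, 6.76 and 7.25 CPM, a log2 difference from trained WT of 0.42 (SE 0.187, edgeR adjusted p = 0.270), and 0.26 without it.

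The ligands of these receptors are made mostly by other cells. Vegfa was lower in trained Tau than in trained WT mice by a log2 value of -0.46 (SE 0.141, edgeR adjusted p = 0.113), at 44.8 ± 2.72 CPM (SD, n = 4) and 61.6 ± 10.4 CPM (SD, n = 5). The trained Tau libraries, at 41.4 to 48.0 CPM, lay below the trained WT libraries, at 51.3 to 74.6 CPM, and without WT trained replicate 5 the Vegfa difference was -0.51 (edgeR adjusted p = 0.0623). Angpt2, which encodes an angiopoietin made by endothelium itself, read 0.822 ± 0.310 CPM (SD, n = 5) in trained and 1.35 ± 0.472 CPM (SD, n = 6) in naive WT mice (log2 difference -0.76, edgeR adjusted p = 0.845), and the difference was -0.58 without WT trained replicate 5. Angpt1, made mainly by pericytes and other perivascular cells, differed from naive by -0.35 in trained Tau mice (edgeR adjusted p = 0.336). None of the 3 passed the threshold in any of the 18 comparisons.

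Slco1a4 encodes an organic anion carrier and Abcb1a the efflux pump P-glycoprotein, both at the barrier. In naive mice Slco1a4 read 24.0, 25.2, 20.1 and 28.9 CPM in Tau and 13.6 to 22.8 CPM with a median of 19.5 in WT libraries. The Tau libraries lay in the upper part of the range and beyond it, with a log2 difference of 0.37 (SE 0.177, edgeR adjusted p = 0.528). Abcb1a read 20.8, 17.9 and 17.9 CPM in trained APP/Tau mice, against 12.6 to 17.7 CPM with a median of 14 in naive APP/Tau and 15.3, 16.6, 12.8, 18.2 and 5.39 CPM in trained WT mice. The trained and naive APP/Tau libraries did not overlap (log2 difference 0.36, SE 0.210, edgeR adjusted p = 1). Against trained WT mice the difference was 0.47 (SE 0.218, edgeR adjusted p = 0.465), and 0.26 without WT trained replicate 5. WT replicate 4 lay above the lowest APP/Tau libraries. Mice have a second P-glycoprotein gene, Abcb1b, whose reads can be hard to separate from those of Abcb1a. Abcb1b was higher with the Tau transgene by 0.22 (SE 0.0583, edgeR adjusted p = 0.0554), at 3.91 to 5.98 CPM in 17 libraries against 3.18 to 4.68 CPM in 19, whereas Abcb1a differed by 0.14 (SE 0.104, adjusted p = 0.599). Without WT trained replicate 5 Abcb1b was at 0.23 (edgeR adjusted p = 0.0686) and Abcb1a at 0.09.

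Ly6c1 encodes a small surface protein of brain endothelium and Itm2a a membrane protein enriched there. Ly6c1 read 22.7, 21.9, 17.3, 11.3 and 16.4 CPM in naive APP mice and 9.40 to 15.9 CPM with a median of 12.4 in naive WT mice. Of the 5 APP libraries, 4 lay above the highest WT library and 1 lay inside the WT range. The log2 difference was 0.48 (SE 0.182, edgeR adjusted p = 1, unadjusted p = 0.0128), and 0.39 without APP naive replicate 1 (unadjusted p = 0.0502 in edgeR's quasi-likelihood test). With the APP transgene, averaged over the Tau transgene and training, it was 0.32 (SE 0.104, edgeR adjusted p = 0.289), and 0.27 without WT trained replicate 5. The near-copy Ly6c2, a gene of monocytes, was counted at 2 to 83 reads a library in naive APP mice and at 3 to 8 in naive WT mice, or 0.726 ± 0.441 CPM (SD, n = 5) and 0.0533 ± 0.0215 CPM (SD, n = 6). That is a log2 difference of 3.68 (SE 0.797, edgeR adjusted p = 0.115), and reads shared between the 2 copies were not tested. Itm2a varied least of the members, with naive Tau mice highest on average (25.9 CPM) and trained WT mice lowest (21.4 CPM), and its largest differences between single groups were -0.22 with training in WT mice (SE 0.114, edgeR adjusted p = 0.845) and 0.22 in trained APP against trained WT mice (SE 0.136, edgeR adjusted p = 0.870). These Itm2a values were -0.12 and 0.11 without WT trained replicate 5, smaller than the -0.19 with training in Tau mice.

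The comparisons of each transgenic group with WT in naive mice share the same 6 WT libraries. APP mice had 0 members past an adjusted p of 0.05 (0.0355% of all genes), 1 at an unadjusted p under 0.05 (Ly6c1, lost without APP naive replicate 1, 3.68% of all genes) and 0 with groups that did not overlap (0.299% of all genes). All 10 members were higher in APP than in WT, with a median log2 difference of 0.16 against -0.01 for all genes tested. Tau mice had 0 members adjusted (0.0276% of all genes), 2 unadjusted (Kdr and Slco1a4, 9.31% of all genes) and 0 without overlap (1.49%), with 9 of 10 higher and a median of 0.11, which was 0.01 without Tau naive replicate 2 and 0.21 without Tau naive replicate 4. Both of these results ended without Tau naive replicate 2, WT naive replicate 3 or WT naive replicate 6, and 1 of them without any of the other 3 Tau naive libraries or WT naive replicate 2. APP/Tau mice had 0 members adjusted (0.067%), 0 unadjusted (7.48%) and 0 without overlap (0.303%), with 7 of 10 higher and a median of 0.04. Against the sum of the single-transgene differences, the APP/Tau difference in naive mice was lower for 10 of 10 members (median -0.28, 0 adjusted against 0% of all genes, and 1 unadjusted, Kdr at -0.46, against 7.13%). That Kdr result was lost in 10 of 36 fits with a library left out, and Slco1a4 joined it in several others.

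In trained mice all 3 comparisons share the 5 WT libraries, WT trained replicate 5 among them. APP/Tau mice had 10 of 10 members higher than WT (median 0.42), where 48.0% of all genes were higher. WT trained replicate 5 was the lowest library for all 10, so these signs are not independent. APP/Tau mice also had 0 adjusted (0.0552% of all genes), 5 unadjusted (Kdr, Cdh5, Pecam1, Tek and Abcb1a, 10.2% of all genes) and 2 without overlap (Pecam1 and Kdr, 6.3% of all genes). Without WT trained replicate 5 the median was 0.22 and 1 member, Kdr, had an unadjusted p under 0.05, against 8.13% of all genes. Without APP/Tau trained replicate 1 the count was 2, and without replicate 3 it was 3. It was 4 without APP/Tau trained replicate 2 or WT trained replicate 3, and 6 without WT trained replicate 1 or 4. APP mice had 10 of 10 higher (median 0.28), 0 adjusted (0.0276%), 1 unadjusted (Kdr, 5.84%) and 0 without overlap (2.54%). Without WT trained replicate 5 these became 8 higher, a median of 0.11 and 0 unadjusted (5.35% of all genes). The 1 was also lost without WT trained replicate 1 or APP trained replicate 2 or 3. Without WT trained replicate 4, 4 members had an unadjusted p under 0.05. Tau mice had 8 of 10 higher (median 0.10), 0 adjusted (0.303%), 2 unadjusted (Kdr and Tek, 15.2%) and 0 without overlap (7%). Without WT trained replicate 5 the median was -0.06 with 3 of 10 higher and 0 unadjusted (17.8% of all genes). Without Tau trained replicate 1 the count was 0 as well, and without the library labelled Tau trained replicate 4 the median was 0.14 and the count was 1. Non-additivity in trained mice gave 0 members adjusted (0.0118%) and 0 unadjusted (9.39%), with a median of 0.02, and 0.25 without WT trained replicate 5.

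**Figure D3:**
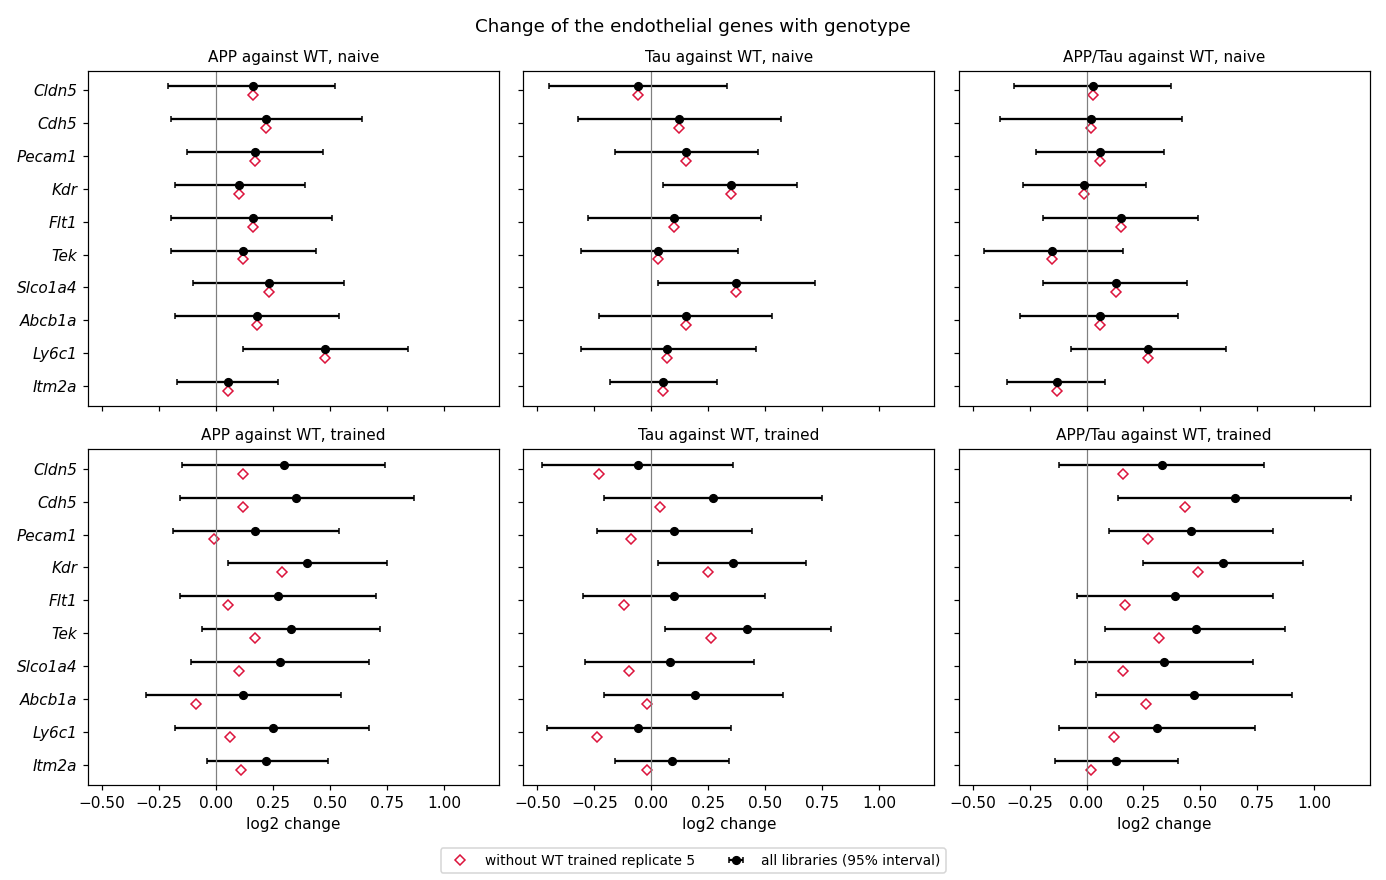
Log2 difference of each member from WT in naive (top) and trained (bottom) mice; black points with bars are edgeR estimates with 95% intervals from all libraries, and red diamonds are estimates without WT trained replicate 5. In the trained APP/Tau panel all 10 points lie above 0, with 5 intervals clear of 0, and all 10 diamonds lie to the left of their points.

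Training was compared within each genotype. In WT mice 8 of 10 members were lower after training (median -0.21), with 0 adjusted (0% of all genes), 2 unadjusted (Kdr and Tek, 5.85% of all genes) and 0 without overlap (0.335%). Without WT trained replicate 5 the median was -0.04 with Kdr alone unadjusted (6.99% of all genes). The count was also 1 without WT naive replicate 1, and 4 without WT trained replicate 4, a library whose striatal marker score of 2.39 was the highest of the 36. In APP mice 8 of 10 were lower (median -0.13), with 0 adjusted (0%), 0 unadjusted (5.24%) and 0 without overlap (2.56%). In Tau mice 8 of 10 were lower (median -0.17), with 0 adjusted (0%), 1 unadjusted (Kdr, 14.6%) and 0 without overlap (10.7%). Without Tau naive replicate 2 that count was 0 and the median -0.03, and the count was 2 without Tau naive replicate 1 or 4, where Cldn5 joined Kdr. In APP/Tau mice 9 of 10 were higher (median 0.19), with 0 adjusted (0%), 0 unadjusted (3.07%) and 1 without overlap (Abcb1a, 1.75%). WT trained replicate 5 is in neither of these groups but enters the shared estimate of spread. Without it 1 member was counted (Abcb1a, edgeR unadjusted p = 0.0215, and 0.0961 with it), against 3.17% of all genes. For the direct test of APP/Tau against WT training effects, 10 of 10 members had a positive difference (median 0.35), 0 adjusted (0%) and 2 unadjusted (Kdr and Tek at 0.62, 4.14% of all genes). Without WT trained replicate 5 the median was 0.18 and Kdr alone was counted, against 3.68% of all genes. Kdr alone was also counted without APP/Tau trained replicate 3, and without WT trained replicate 4 the count was 4. The same test gave 0 adjusted (0%) and 0 unadjusted for APP (2.67%) and 0 adjusted (0%) and 0 unadjusted for Tau (9.04%), with medians of 0.12 and 0.01, which turned to -0.10 and -0.17 without WT trained replicate 5. For Tau that left 1 of 10 members with a positive difference in place of 6, and 1 at an unadjusted p under 0.05 (Slco1a4). That count is near the 11.4% of all genes in the same fit.

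**Figure D4:**
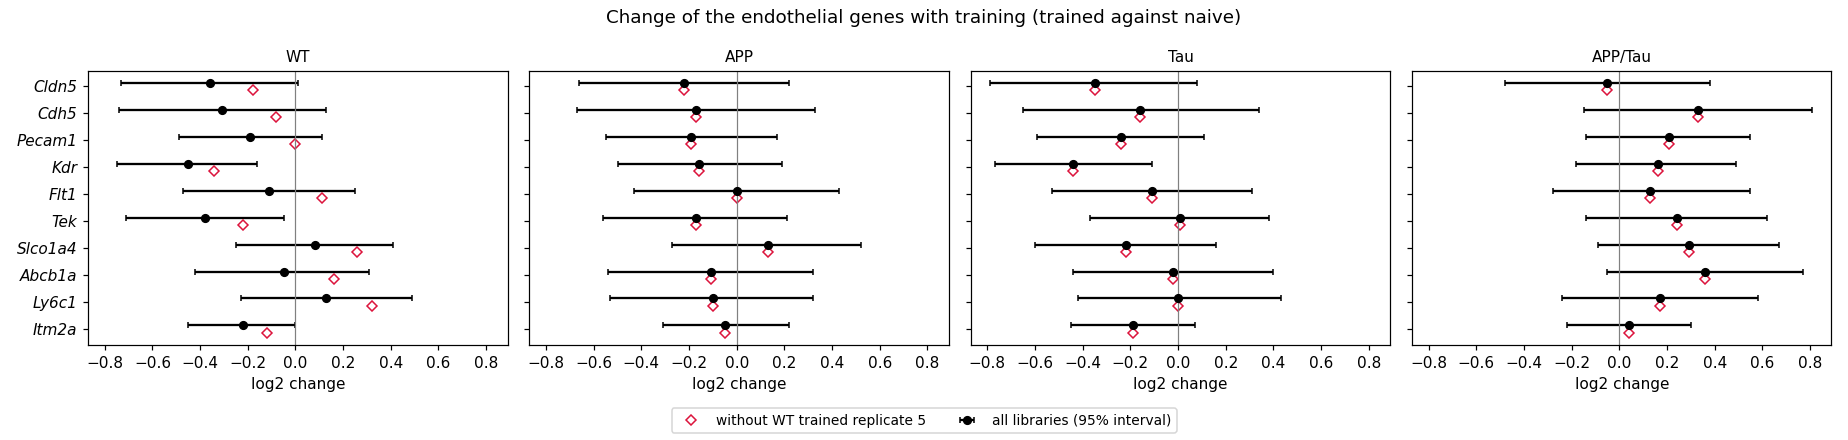
Log2 difference of trained from naive libraries for each member in 4 genotypes; black points with bars are edgeR estimates with 95% intervals, and red diamonds are estimates without WT trained replicate 5. Kdr lies below 0 with an interval clear of 0 in WT and in Tau mice and above 0, with an interval that includes 0, in APP/Tau mice.

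Training averaged over genotypes had 0 members adjusted (0%) and 2 unadjusted (Cldn5 and Kdr, 7.95% of all genes). Kdr alone was left without Tau naive replicate 2, APP naive replicate 2 or APP/Tau trained replicate 2. With the APP transgene 10 of 10 members were higher (median 0.14), 0 adjusted (0.0985% of all genes) and 2 unadjusted (Cldn5 and Ly6c1, 9.95% of all genes). The Cldn5 result was lost in 11 of 36 fits with a library left out. The count was 5 without WT trained replicate 4 or Tau naive replicate 2. Without WT trained replicate 5 it was 3 (8.81% of all genes) with a median of 0.10. Choroid plexus markers were higher in the same comparison (median 1.37, 17 of 17 at an unadjusted p under 0.05), and their part was not tested. With the Tau transgene 7 of 10 were higher (median 0.09), 0 adjusted (0.835%) and 1 unadjusted (Kdr at 0.20, SE 0.0829, 13.2% of all genes), which was lost without Tau naive replicate 2. Without WT trained replicate 5 the median was 0.05 and Kdr was at 0.17.

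Other vascular genes gave the setting for these values. In trained APP/Tau against trained WT mice, 12 of 30 pan-endothelial genes were higher and 0 lower at an unadjusted p under 0.05 (median 0.34, 0 adjusted, against 10.2% of all genes), and without WT trained replicate 5, which held the lowest level of 21 of the 30, these were 4 higher and 0 lower (median 0.24, against 8.13% of all genes). Over all libraries the smallest p in this list were those of Tm4sf1 (0.54, edgeR adjusted p = 0.225) and Pltp (0.63, edgeR adjusted p = 0.242), which encodes a phospholipid transfer protein. Without that library the values of Tm4sf1 and Pltp were 0.45 and 0.50. Of 12 barrier junction genes 4 were higher (2 without it), of 20 barrier transporter genes 4 (3 without it), of 18 genes of the barrier's Wnt pathway 5 (5 without it), of 13 arterial genes 3 (3 without it), of 13 endothelial activation genes 5 (3 without it) and of 13 pericyte markers 3 (1 without it), with 0 lower in each and 0 adjusted. The vascular lists share some genes, such as Esam, Tie1, Ptprb, Sox17 and Vcam1, so their counts are not independent. Of 9 venous genes 4 were higher and 1 lower, and of 17 VEGF and angiopoietin genes 1 was higher and 1 lower (Vegfd, which encodes a VEGF family ligand, at -0.55). Without that library these were 3 and 0, and 1 and 0. Fzd6, which encodes a Wnt receptor, had the smallest p of these (0.74, SE 0.176, edgeR adjusted p = 0.140), and Tie1, which encodes a partner of Tie2, was at 0.66 (SE 0.211, adjusted p = 0.265). Fzd6 was at 0.69 (edgeR adjusted p = 0.310) and Tie1 at 0.47 (edgeR adjusted p = 0.504) without WT trained replicate 5. Markers of other cell types differed in the same comparison, with 0 adjusted in each list. Smooth muscle markers had 6 of 10 higher (summed level 21.7 to 40.3 CPM against 11 to 25.6 CPM in trained WT libraries), microglia markers 7 of 12 (381 to 823 against 329.5 to 471 CPM) and oligodendrocyte markers 7 of 7 (5188 to 5671 against 3203 to 4070.4 CPM). Fibroblast markers had 4 of 12 higher, and their summed level of at least 275 CPM did not overlap the 97.1 to 188 CPM of trained WT libraries. The counts without WT trained replicate 5 were 3 for smooth muscle, 5 for microglia, 7 for oligodendrocyte and 1 for fibroblast markers. Their part in the endothelial differences was not tested. The summed level of the 10 members was 167 to 193 CPM in trained APP/Tau libraries, 67.4 to 169.8 CPM in trained WT libraries and 134 to 182 CPM in naive APP/Tau libraries.

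With the Tau transgene 3 genes that endothelium shares with other cells passed. Unc5b, which encodes a netrin receptor of arterial endothelium that neurons also express, was higher by 0.41 (SE 0.0692, edgeR adjusted p = 0.00325), at 28.3 to 46.1 CPM (median 38.4) in 17 libraries against 20.8 to 38.2 CPM (median 27.6) in 19. It kept an adjusted p of 0.0142 or less in all 44 other settings. It was the 1 of 13 arterial genes that passed. Of 13 endothelial activation genes, the chemokine genes Ccl2 (1.98, SE 0.436, edgeR adjusted p = 0.0175) and Cxcl10 (2.39, SE 0.546, edgeR adjusted p = 0.0300) were higher, both also made by microglia and astrocytes. Their levels were low, with 0 to 56 reads of Ccl2 in the Tau libraries and 10 to 369 reads of Cxcl10, against 0 to 12 and 8 to 60 reads in the others, and the groups overlapped. The call of Ccl2 was lost without APP/Tau trained replicate 1 (adjusted p = 0.188), Tau naive replicate 2 (0.0618), Tau trained replicate 1 (0.0623) or replicate 3 (0.0542). The call of Cxcl10 was lost without the same 4 libraries (edgeR adjusted p = 0.108, 0.127, 0.0581 and 0.105) and without APP trained replicate 1 (0.0723). Microglia markers had 10 of 12 higher with the Tau transgene at an unadjusted p under 0.05 (median 0.41, 0 adjusted), against 13.2% of all genes. The microglia scores were 0.96 in APP/Tau trained replicate 1, 0.82 in Tau naive replicate 2, 0.07 in Tau trained replicate 1 and 0.45 in Tau trained replicate 3, and from -0.46 to 0.21 in the libraries without the Tau transgene. Scores were also high in APP/Tau naive replicates 1 (0.93) and 6 (0.82). Without either of these both calls were kept (edgeR adjusted p = 0.0234 and 0.0244 for Ccl2, 0.043 and 0.0441 for Cxcl10). The part of microglia in the chemokine differences was not tested. All 7 oligodendrocyte markers were also higher with the Tau transgene (median 0.36), Mbp among them (0.36, edgeR adjusted p = 0.0114). Without WT trained replicate 5, 5 of the 7 passed. No member and none of the 30 pan-endothelial genes passed. As 0.835% of all genes passed over all libraries, 0 passing in lists this small is near that share.

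The members varied together from library to library within groups. Over 36 libraries, with group means removed from log2 CPM, the 45 pairs of members had a median Pearson's r of 0.66 (Spearman 0.53), from 0.27 for Kdr with Ly6c1 to 0.90 for Pecam1 with Flt1. Without WT trained replicate 5 the median r was 0.48 (Spearman 0.39), from 0.03 to 0.75, and also without APP naive replicate 2 it was 0.42 (Spearman 0.38). The points share library, depth and dissection, and the values are descriptive. Cdh5 followed the other 9 members most closely (r of 0.92, and 0.83 without WT trained replicate 5). Kdr followed them least over all libraries (0.63, and 0.58 without it), and Ly6c1 least once that library was left out (0.66, then 0.36). Among 14052 other genes, those most like the mean of the members were Tie1 (r of 0.87), Nid1 (0.87, a basement membrane protein), Vtn (0.86, vitronectin, a pericyte marker), Acvrl1 (0.86, a BMP receptor of endothelium), Vwf (0.85, von Willebrand factor), Adcy4 (0.85), Gata2 (0.84), Lamc3 (0.83), Flt4 (0.83) and Adgrf5 (0.83). Without WT trained replicate 5 Tie1 had 0.77, Nid1 0.79 and Vtn 0.80, and the highest was the fibroblast marker Aldh1a2 (0.81). At the other end stood Znrf2 (-0.64), Dclk2 (-0.64), Cnr1 (-0.63), Npy2r (-0.60) and Jmjd4 (-0.59), which without that library were at -0.38, -0.40, -0.52, -0.46 and -0.19.

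**Figure D5:**
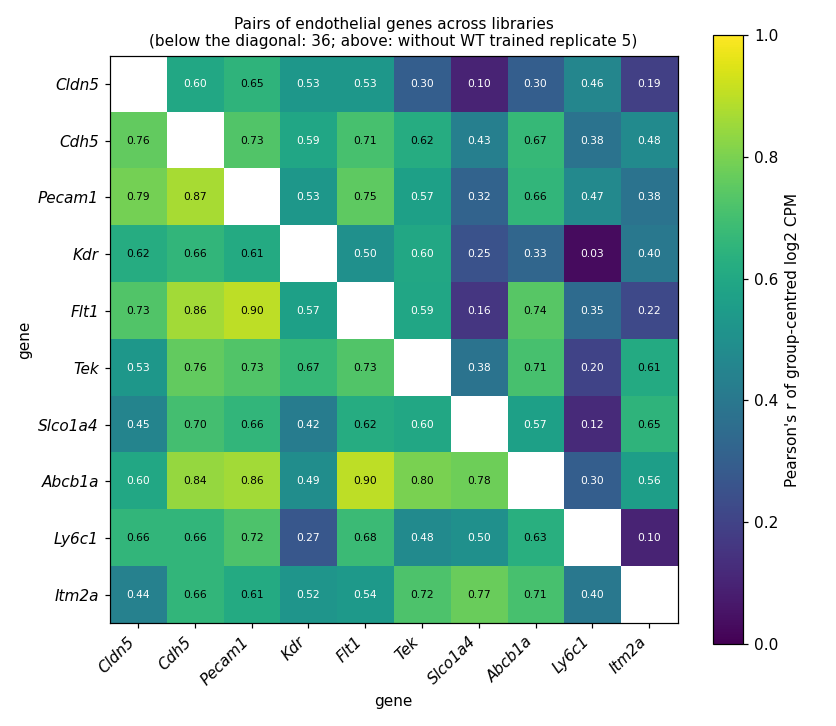
Pearson's r between pairs of members over group-centred log2 CPM, with 36 libraries below the diagonal and without WT trained replicate 5 above it. The values above the diagonal are lower, with a median of 0.48 against 0.66, and Kdr with Ly6c1 is the lowest pair on both sides (0.27 and 0.03).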

How the data were processed

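Input fraction RNA (100 ng, poly(A) selected) came from the hippocampus of female mice and was sequenced as 2 reads of 150 bp per fragment, with 40 M reads per sample intended, per the labels' protocols. The authors deposited raw counts per gene for 36 libraries. Reads were trimmed with Trimmomatic 0.39 and the build was mm39, per the submitters' processing notes. Aligner, counter, annotation and use of strand were not given in the sources used here, so overlapping genes and near-copies are uncertain. Groups and replicate numbers came from the labels, which do not state whether each library came from its own mouse. The p-values thus describe only the spread among these libraries, which may be technical. No 2 libraries of a group were alike within sampling noise (chi-square per degree of freedom of at least 14.4 over 68 pairs).

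Counts were filtered with filterByExpr by group (minimum count 10, minimum total 15), scaled by TMM and fitted with edgeR 4.0.16 in R 4.3.3 (quasi-likelihood, robust) with 1 mean per group over all 36 libraries, which share the estimate of spread. Each of 18 contrasts was tested two-sided, with Benjamini-Hochberg adjustment over 25382 genes at 0.05. Intervals are 1.96 SE. CPM uses TMM-scaled totals, and the log2 CPM behind scores and correlations a prior count of 2. On simulated data the fit was checked before use. Alternatives were RLE size factors, no filter, a block for replicate number, library number as a covariate, DESeq2 1.42.0, limma-voom (limma 3.58.1) with quality weights, only the groups compared, each library left out, and, chosen after seeing the data, both libraries that stand apart left out.

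The rule for named genes took all 10 members, genes of 19 marker lists that passed (up to 4 a list) or else their 2 smallest p, the ligands Vegfa, Angpt1 and Angpt2, the copies Ly6c2 and Abcb1b, and the 10 genes most and 5 least like the members. The 5 highest without WT trained replicate 5 were looked at after values were seen. Members and lists were chosen with earlier results of these data known. Exon lengths are from GENCODE on GRCm38, and replicate numbers were tested for pairing and do not pair libraries.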

Additional observations from a re-analysis of the deposited data

Results flagged for a closer look

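Of 60 group values, 3 held a library far from the rest of its group, and chance alone marks about 1 group in 20. Cldn5 in WT trained replicate 5 read 6.99 CPM, and the next lowest trained WT library 14.9 CPM. Flt1 in APP naive replicate 2 read 45.5 CPM, and the next highest naive APP library 32 CPM. Cdh5 in APP naive replicate 2 read 10.4 CPM, and the next highest 7.78 CPM. In both libraries the other members lay on the same side, with member scores of -1.23 and 0.52.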

How the results depend on the processing

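No member passed an adjusted p of 0.05 in any of the 18 comparisons under any of the 44 other settings, and the smallest adjusted p was 0.0838, for Kdr with training in Tau mice without Tau naive replicate 1 (edgeR). The 22 member differences with an unadjusted p under 0.05 kept their direction in all 968 values. They had been picked for lying away from 0, and most settings left out a single library, so a change of direction was unlikely from the start. Of the 22, only 5 kept an unadjusted p under 0.05 with each library left out in turn. With RLE size factors the member score of WT trained replicate 5 was -1.24. Replicate numbers are shared between groups, but same-numbered libraries did not deviate together (r from -0.335 to 0.233, median -0.0137, 106 pairs). With the replicate block 0 members passed, and those at an unadjusted p under 0.05 numbered 0 in place of 2 for Tau against WT naive, 4 in place of 5 for APP/Tau against WT trained 1 in place of 2 for Tau against WT trained, 0 in place of 1 for non-additivity in naive mice and 1 in place of 2 for the APP transgene on average. Without both WT trained replicate 5 and the library labelled Tau trained replicate 4, a setting chosen after seeing the data, the count was 1 for APP/Tau against WT trained and 0 for Tau against WT trained. With only the groups compared it was 1 in place of 5 for APP/Tau against WT trained, 0 in place of 1 for APP against WT trained, 1 in place of 2 for Tau against WT trained and for training in WT mice, 1 in place of 0 for APP/Tau against WT naive and for training in APP/Tau mice, and 2 in place of 1 for non-additivity in naive mice. With the library number as covariate Kdr with training in Tau mice was lost (0 in place of 1). With limma-voom the count was 0 in place of 1 for APP against WT trained and 4 in place of 2 for the APP transgene on average. It was 6 in place of 5 with limma-voom for APP/Tau against WT trained. The number of all genes called depended far more on the setting. For Tau against WT trained it was 77, and 3 to 360 leaving out single libraries, 100 with the replicate block, 244 with the library number as covariate, 538 with DESeq2, 1300 with limma-voom and 230 with only the groups compared. For training in Tau mice it was 0, and up to 192 leaving out a library, 5, 364, 779 and 290 under the covariate, DESeq2, limma-voom and the groups compared. For the Tau transgene on average it was 212, and 65 to 391 leaving out a library, 124 with no filter and 553 with DESeq2. For Tau against WT naive it was 7, and 3 to 9 leaving out a library, 4 with the replicate block and 2 with only the groups compared. For APP/Tau against WT it was 14 trained (DESeq2 89, limma-voom 25, only the groups compared 25) and 17 naive (DESeq2 25, only the groups compared 11), and for the APP transgene on average 25 (DESeq2 65, without both libraries 14, leaving out a library 15 to 30). The cause of these differences was not tested. Ccl2 and Cxcl10 also missed the threshold with limma-voom (adjusted p = 0.305 and 0.244), and Cxcl10 with no filter (0.0548). The members had at least 196 counts in each library, and groups held as few as 3 libraries.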
